A study of Mus musculus with 6 samples.

Results

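Radial glia are the stem cells of the embryonic brain, and the markers described here are the genes Nes, Vim, Fabp7, Fabp5, Prom1, Slc1a3, Gfap, Hopx, Tnc and Ptprz1. All 10 were found by gene symbol among 19938 genes on Affymetrix arrays, each read from the probe set (the group of probes for 1 transcript) with the highest mean over 6 arrays. The arrays measured RNA of neural stem cell cultures from 2 regions of the embryonic brain, with 3 arrays for the subventricular zone of the third ventricle and 3 for that of the lateral ventricle. Both groups came from female wild-type C57BL/6 embryos at embryonic day 17.5, and both grew as dissociated cells on low-attachment plastic in DMEM/Neurobasal medium with EGF, FGF, B27 and N2. The RNA is thus that of cultured cells and not of the tissue itself. The labels do not say how the cells of a culture were purified, and in such bulk RNA fewer cells of a type and less RNA per cell cannot be told apart.

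Radial glia line the ventricles, reach across the wall of the brain with a long fibre and divide to give neurons, later astrocytes and oligodendrocytes. Their cytoskeleton is built from the intermediate filament proteins nestin and vimentin, they carry fatty acid binding proteins and a glutamate transporter, and their surface and matrix hold prominin, tenascin-C and a receptor phosphatase. Glial fibrillary acidic protein appears in rodents mainly when radial glia turn into astrocytes or adult stem cells. Values are log2 expression, so that a difference of 1 is a doubling. Each probe set binds with its own strength, so the level of 1 gene says nothing of its abundance beside another. Mean levels serve here to choose which genes of a list are named, and summed levels to set arrays side by side.

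One array, lateral ventricle array 2, was more like the other region than its own. Across all genes, which are not independent replicates, its correlation was r = 0.991 with each array of the third ventricle, but 0.980 with lateral array 1 and 0.982 with lateral array 3. Arrays of the third ventricle had r = 0.995 among themselves. The difference of each marker is therefore given with and without it. The array was picked out from these same data. Adjusted p-values of the fit without it follow that choice and serve only as description. As a gauge of background, the 95th percentile of 1027 olfactory receptor genes, which are used mainly in the nose, lay between 5.07 and 5.12 in the third ventricle arrays and between 5.03 and 5.16 in the lateral ventricle arrays. By that gauge 7 of the 10 markers were above background in every array, Gfap was below it in every array, and Prom1 and Hopx lay around it. The median over all genes was 5.54 to 5.56 in the third ventricle arrays and 5.55 to 5.59 in the lateral ventricle arrays.

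The stretch before the transcription start is printed for the genes that varied by at least 1 on the log2 scale over the 6 arrays, Nes, Hopx and Tnc, and for Fabp7 as a gene that hardly varied. Of all genes, 5.81% varied by at least 1, and the lowest values of Hopx lay below the gauge. Each is the 250 bases upstream of a RefSeq start in build GRCm38.p6, on the gene's own strand. Nes lies at chr3:87970843-87971092 on the plus strand, the 2 starts of Hopx at chr5:77115124-77115373 and chr5:77095268-77095517 on the minus strand, the downstream of 2 starts of Tnc at chr4:64046937-64047186 on the minus strand and Fabp7 at chr10:57784673-57784922 on the plus strand. Capitals mark a match, on either strand, to 1 of 4 motifs, ATTGTT for SOX factors, TGGGAA for the Notch partner RBPJ, TTCNNNGAA for STAT factors and TTCCCGC for E2F.
Nes: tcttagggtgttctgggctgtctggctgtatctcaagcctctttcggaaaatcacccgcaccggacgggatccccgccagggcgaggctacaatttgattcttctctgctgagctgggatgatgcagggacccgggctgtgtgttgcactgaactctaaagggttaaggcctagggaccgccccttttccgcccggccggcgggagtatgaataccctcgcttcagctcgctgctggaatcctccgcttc
Hopx start 1: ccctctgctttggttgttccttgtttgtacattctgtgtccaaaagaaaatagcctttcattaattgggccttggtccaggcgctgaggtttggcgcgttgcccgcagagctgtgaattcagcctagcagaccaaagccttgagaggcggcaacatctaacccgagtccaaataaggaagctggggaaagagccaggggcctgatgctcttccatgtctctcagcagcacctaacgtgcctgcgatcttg
Hopx start 2: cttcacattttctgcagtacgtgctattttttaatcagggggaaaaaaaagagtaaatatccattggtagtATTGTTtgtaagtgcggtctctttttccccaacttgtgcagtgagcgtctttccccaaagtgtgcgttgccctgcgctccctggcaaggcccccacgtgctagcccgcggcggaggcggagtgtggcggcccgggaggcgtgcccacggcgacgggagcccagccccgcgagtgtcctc
Tnc: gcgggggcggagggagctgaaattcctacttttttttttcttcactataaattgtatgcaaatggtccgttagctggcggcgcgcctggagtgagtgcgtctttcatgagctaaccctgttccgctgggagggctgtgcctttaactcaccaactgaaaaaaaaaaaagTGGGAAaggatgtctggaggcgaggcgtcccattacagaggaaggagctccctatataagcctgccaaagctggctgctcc
Fabp7: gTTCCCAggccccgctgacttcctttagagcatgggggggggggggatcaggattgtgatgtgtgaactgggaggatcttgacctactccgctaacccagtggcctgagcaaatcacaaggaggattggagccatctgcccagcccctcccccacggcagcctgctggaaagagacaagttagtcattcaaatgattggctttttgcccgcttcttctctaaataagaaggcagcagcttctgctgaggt
The Nes stretch and the first Hopx stretch held 0 matches, the second Hopx stretch held 1 SOX match, and those of Tnc and Fabp7 held 1 RBPJ match each. Of 32851 such stretches in the table, 9.42% held the SOX letters, 21.6% those of RBPJ, 7.02% those of STAT factors and 3.82% those of E2F. The letters of RBPJ and E2F share TTCCC, but no match overlaps another in the printed stretches. A match describes the letters and no binding was measured here, nor do the files say which start the probes of Hopx or Tnc read.

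The comparison asked whether stem cells of the third ventricle differ from those of the lateral ventricle in these markers. A gene was called where limma's p, adjusted for all 19938 genes by the Benjamini-Hochberg method, was below 0.05. By that rule 0 of the 10 markers passed, beside 0.231% of all genes, and the lowest adjusted p was 0.160, for Hopx. At an unadjusted p below 0.05 there were 3 markers, Hopx, Fabp5 and Tnc, against 12.6% of all genes. The same share is the background for the unadjusted counts over all arrays given for other lists below. Of the 10, 5 had a positive and 5 a negative difference, with a median of -0.01 on the log2 scale beside -0.02 over all genes. The groups did not overlap for Hopx and Vim, which were higher in the third ventricle cultures, nor for Tnc, which was lower, and 17.0% of all genes had groups that did not overlap, 7.77% as higher and 9.24% as lower. The markers varied more among the lateral ventricle arrays than among the third ventricle arrays in 8 of 10 cases, as did 66.6% of all genes.

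**Figure D1:**
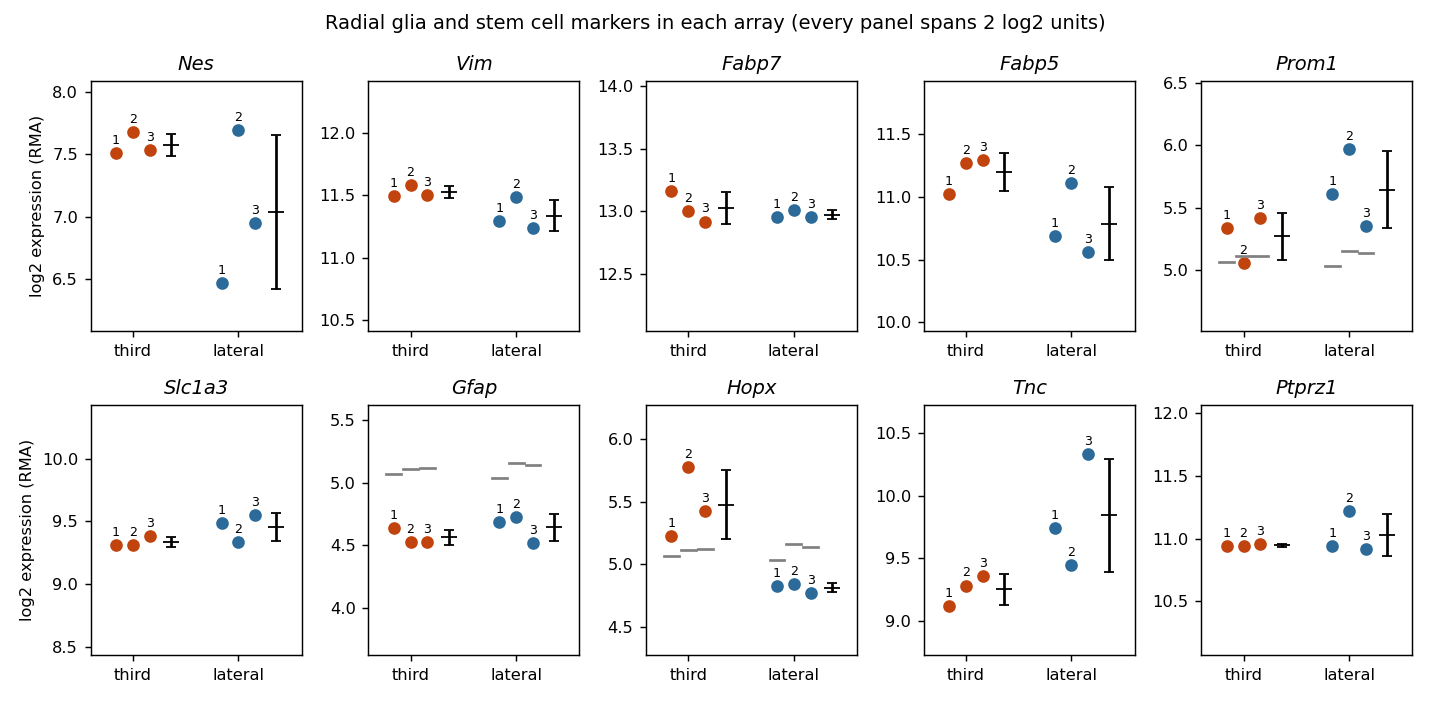
Log2 expression of each marker in the 3 arrays of the third ventricle (left, orange) and the 3 lateral ventricle arrays (right, blue), numbered by replicate. Black bars show the mean and SD, grey dashes the background gauge of each array where it falls inside the panel, and every panel spans 2 log2 units. Gfap sits below the gauge in all 6 arrays, and lateral ventricle array 2 departs from arrays 1 and 3 for Nes.

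Among the intermediate filament genes, Nes encodes nestin, the filament protein most used to name neural stem cells. It read 7.51, 7.67 and 7.54 in the third ventricle arrays 1, 2 and 3, against 6.47, 7.70 and 6.95 in lateral ventricle arrays 1, 2 and 3. The third ventricle cultures were alike, while the lateral ones ranged over 1.22, with array 2 above each array of the third ventricle. The difference of 0.53 (SE 0.27, 95% interval -0.08 to 1.15, adjusted p = 0.449) did not pass in limma. Without lateral ventricle array 2 it was 0.86 (adjusted p = 0.0103), and against that array alone it was -0.12.

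Vim encodes vimentin, the partner filament of nestin in radial glia. It read 11.49, 11.58 and 11.50 in the third ventricle arrays, against 11.29, 11.48 and 11.24 in the lateral ventricle arrays. The groups did not overlap, but the gap between the lowest array of the third ventricle and lateral ventricle array 2 was narrow. The difference was 0.19 (95% interval -0.04 to 0.42, adjusted p = 0.475). It was 0.26 without lateral ventricle array 2 (adjusted p = 0.155) and 0.04 against that array alone.

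Gfap, the astrocyte filament, read 4.63, 4.53 and 4.53 in the third ventricle arrays and 4.68, 4.73 and 4.52 in the lateral ventricle arrays. Every one of these lies below the gauge, so Gfap was not detectable above background in either region and its difference of -0.08, or -0.04 without lateral ventricle array 2, compares no levels. Of the other filament and lamin genes on a list of relatives, 0 of 12 measured passed in limma, also 0 at an unadjusted p below 0.05, and the median difference was 0.11. Lmnb1, a lamin of the nuclear envelope that is not a glial filament, had the highest mean and differed by 0.60 (adjusted p = 0.482), followed by the keratin Krt8 at -0.04. Without lateral ventricle array 2, Lmnb1 was the 1 relative that passed, at 1.04 (adjusted p = 0.00105), while 8.25% of all genes passed in that fit.

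Both fatty acid binding proteins were well above background. Fabp7, the brain form known as BLBP and a marker of radial glia, read 13.17, 13.00 and 12.92 in the third ventricle arrays, against 12.96, 13.01 and 12.95 in the lateral ventricle arrays. Its values overlapped and spanned only 0.25 over the 6 arrays. The difference was 0.05 (95% interval -0.17 to 0.28, adjusted p = 0.865), and 0.07 without lateral ventricle array 2.

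Fabp5, the epidermal form that neural progenitors also carry, read 11.03, 11.28 and 11.29 in the third ventricle arrays, against 10.69, 11.11 and 10.56 in the lateral ventricle arrays. The third ventricle array 1 lay below lateral ventricle array 2, so the groups overlapped. The difference was 0.41 (95% interval 0.05 to 0.77, adjusted p = 0.355), 0.57 without lateral ventricle array 2 (adjusted p = 0.0226) and 0.08 against that array alone. A second probe set of Fabp5 differed from the first by at most 0.04 in any array, and since the files do not say whether they share probes they were not counted as separate evidence. Of 10 measured relatives of the family, 0 passed in limma, also 0 at an unadjusted p below 0.05, the median was near 0 at -0.0037, and 7 lay below the gauge in all arrays. Fabp3, the heart form, and the retinoid carrier Crabp1 had the highest means, with differences of -0.47 and 0.16, and Fabp3 passed without lateral ventricle array 2 at -0.87 (adjusted p = 0.00322).

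Slc1a3 encodes GLAST, the glutamate transporter of radial glia and astrocytes. It read 9.31, 9.31 and 9.39 in the third ventricle arrays, against 9.48, 9.33 and 9.56 in the lateral ventricle arrays. The ranges overlapped at lateral ventricle array 2. The difference was -0.12 (95% interval -0.34 to 0.10, adjusted p = 0.656), -0.18 without lateral ventricle array 2 (adjusted p = 0.333) and 0.004 against that array alone. Of 5 relatives 0 passed in limma over all arrays (1 at an unadjusted p below 0.05), and the median difference was -0.17. The neutral amino acid transporters Slc1a4 and Slc1a5 differed by -0.17 and -0.70. Slc1a1, a glutamate transporter used mainly by neurons, differed by -1.53 (adjusted p = 0.119) and lay above the gauge in 1 array of the third ventricle and in 3 of 3 lateral ventricle arrays, and it passed without lateral ventricle array 2 at -1.85 (adjusted p = 0.00143).

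Prom1 encodes prominin-1 (CD133), a protein of membrane protrusions on the apical face of neural progenitors. It read 5.34, 5.06 and 5.42 in the third ventricle arrays, against 5.61, 5.97 and 5.35 in the lateral ventricle arrays. The third ventricle array 2 fell below the gauge and the other 5 lay above it, and RMA compresses differences this close to background. The difference was -0.37 (95% interval -0.76 to 0.02, adjusted p = 0.409). Prom1 departed from the pattern of Nes in that the difference shrank to -0.21 without lateral ventricle array 2 and was -0.70 against that array alone. Its 1 relative, Prom2, differed by 0.12 and was above the gauge in 1 array of the third ventricle and in 0 of 3 lateral ventricle arrays.

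Hopx is a small homeodomain protein without the residues for DNA binding, known as a marker of quiescent stem cells in several tissues and, in human cortex, of outer radial glia. It read 5.23, 5.78 and 5.43 in the third ventricle arrays, against 4.82, 4.84 and 4.77 in the lateral ventricle arrays. The third ventricle arrays lay above the gauge and the lateral ones below it, without exception. With each lateral value replaced by the gauge of its array, the mean of Hopx was 1.29-fold higher in the third ventricle cultures. That figure carries no interval for the variation between cultures. The measured means were 5.48 ± 0.28 in the third ventricle and 4.81 ± 0.03 in lateral ventricle cultures (SD, n = 3 each). The difference of 0.66 (SE 0.14, 95% interval 0.34 to 0.99) did not pass in limma (adjusted p = 0.160). It was 0.68 without lateral ventricle array 2 (adjusted p = 0.0360) and 0.64 against that array alone. Since all 3 lateral values were at background, these differences are set by the floor on that side, and they do not show how the lateral cultures compare with each other in Hopx.

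Other genes known from outer radial glia in human cortex did not pass, with 0 of 10 measured called in limma and a median of -0.01. At an unadjusted p below 0.05 there were 4, against 12.6% of all genes. The cytokine receptor subunits Lifr and Il6st had the highest means and differed by 0.87 (adjusted p = 0.276) and -0.09. Without lateral ventricle array 2, Lifr (1.18, adjusted p = 0.00135) and the integrin Itgb5 (0.71, adjusted p = 0.00407) passed as higher and the monooxygenase-like Moxd1 (-3.49, adjusted p = 0.00131) as lower. Moxd1 spread widely among the lateral ventricle arrays, with 5.22, 5.10 and 5.37 in the third ventricle arrays 1, 2 and 3 against 7.92, 6.11 and 9.52 in lateral ventricle arrays 1, 2 and 3. It was above the gauge in 2 arrays of the third ventricle, so its difference is measured against a group near background.

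Tnc encodes tenascin-C, a matrix protein of the stem cell niche that modulates the response to growth factors. It read 9.12, 9.28 and 9.36 in the third ventricle arrays, against 9.74, 9.45 and 10.34 in the lateral ventricle arrays. Each array of the third ventricle lay below each lateral one, lateral ventricle array 2 by the smallest margin. The difference was -0.59 (SE 0.21, 95% interval -1.07 to -0.11, adjusted p = 0.340). It was -0.79 without lateral ventricle array 2 (adjusted p = 0.0291) and -0.19 against that array alone.

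Ptprz1 encodes a receptor tyrosine phosphatase of radial glia and oligodendrocyte precursors, which binds tenascins, contactins, pleiotrophin and midkine. It read 10.94, 10.94 and 10.96 in the third ventricle arrays, against 10.94, 11.22 and 10.92 in the lateral ventricle arrays. The third ventricle arrays lay within 0.02 of each other, and lateral ventricle array 2 stood above the other 5 arrays. The difference was -0.08 (95% interval -0.33 to 0.17, adjusted p = 0.805), 0.02 without lateral ventricle array 2 and -0.27 against that array alone.

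Among 19 measured partners and relatives of these matrix and receptor genes, 1 passed in limma as lower and 0 as higher, with a median of 0.04. At an unadjusted p below 0.05 there were 8 of the 19, against 12.6% of all genes. The groups did not overlap for 4 as higher and 4 as lower, beside 7.77% and 9.24% of all genes. The 1 was Cntn1, a contactin that binds Ptprz1 and was listed with this result known, with 6.46, 6.16 and 6.22 in the third ventricle arrays against 8.42, 8.40 and 8.29 in the lateral ventricle arrays, a difference of -2.09 (SE 0.11, adjusted p = 0.000524). It was -2.08 without lateral ventricle array 2 and -2.12 against that array alone, so for this ligand that array lay with its group. Of the ligands of Ptprz1, pleiotrophin (Ptn) differed by 0.23 (adjusted p = 0.400) and midkine (Mdk) by -0.85 (adjusted p = 0.259). Without lateral ventricle array 2, Mdk (-1.14, adjusted p = 0.000979) and tenascin-R (Tnr, -1.88, adjusted p = 0.0197) passed as lower and the syndecan Sdc3 (0.78, adjusted p = 0.00809) as higher. Tnr was above the gauge in 1 array of the third ventricle.

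**Figure D2:**
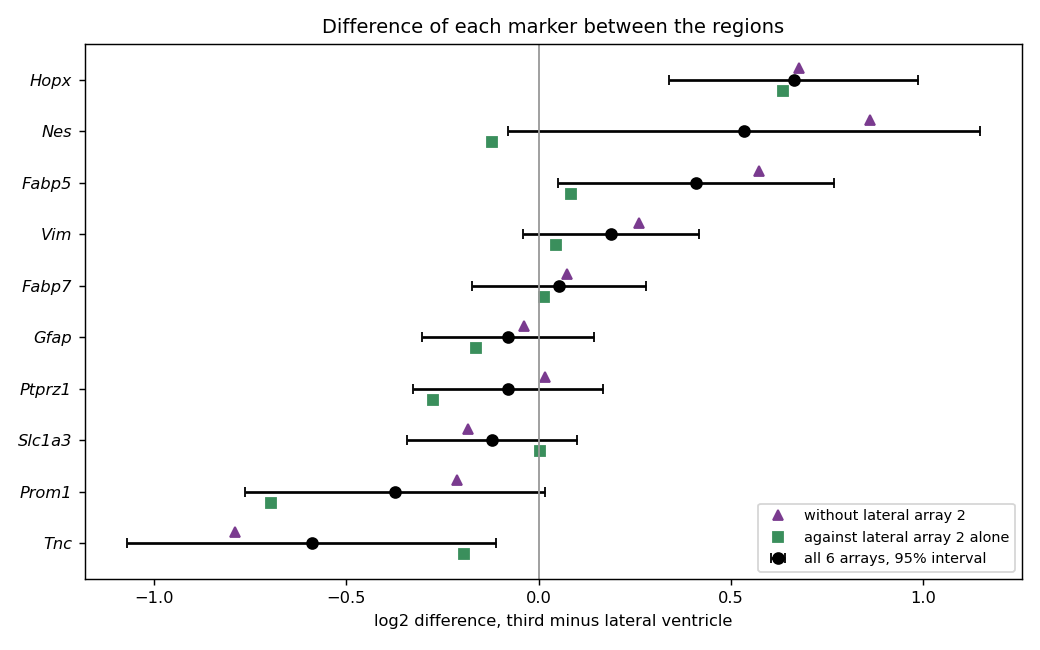
Log2 difference of each marker, the third minus the lateral ventricle, with black points and 95% intervals for all 6 arrays, purple triangles for the fit without lateral ventricle array 2 and green squares for the third ventricle arrays against lateral ventricle array 2 alone. For Nes the 3 estimates run from -0.12 to 0.86. Hopx was below the background gauge in every lateral array, so its 3 estimates are measured against the floor.

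Without lateral ventricle array 2, 4 of the 10 markers passed in limma, Nes, Fabp5 and Hopx as higher and Tnc as lower, against 8.25% of all genes (4.37% as higher and 3.88% as lower). That array was left out because these same data set it apart, so these passes are no independent evidence of a difference. Against lateral ventricle array 2 alone 0 of the 10 passed in limma (3 at an unadjusted p below 0.05), beside 0.296% of all genes, and that comparison has a single lateral culture, whose spread is taken to be that of the other region. For 8 of the 10 markers lateral ventricle array 2 lay above both other lateral ventricle arrays, as it did for 39.6% of all genes, and for Slc1a3 and Tnc it lay below both. The 8 include Gfap and Hopx, which were below the gauge in every lateral array, so their order there compares no levels. For Nes, Fabp5 and Tnc the difference from array 2 alone was -0.12, 0.08 and -0.19, while Hopx was at background in every lateral array.

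Cell cycle genes moved with the same arrays. Relative to each gene's mean, the median of 15 measured cell cycle genes was 0.57, 0.54 and 0.61 in the third ventricle arrays 1, 2 and 3, against -1.41, 0.57 and -0.86 in lateral ventricle arrays 1, 2 and 3. On the same scale Nes was 0.21, 0.37 and 0.23 in the third ventricle arrays, against -0.83, 0.39 and -0.36 in the lateral ventricle arrays. The order of the lateral arrays was thus the same in both, with array 1 lowest and array 2 highest. For Tnc the values were -0.43, -0.27 and -0.19 in the third ventricle arrays, against 0.20, -0.10 and 0.79 in the lateral ventricle arrays, with array 3 highest and array 2 lowest among the lateral ones. With the mean of the cell cycle list as a covariate, the difference of Nes was -0.12 (adjusted p = 0.860), that of Fabp5 0.13, that of Tnc -0.32 and that of Hopx 0.65 (adjusted p = 0.369). With the same covariate Prom1 was at -0.63 (adjusted p = 0.375) and Ptprz1 at -0.25 (adjusted p = 0.570), both farther from 0 than without it, and 0 of the 10 markers passed. The covariate was 0.52, 0.51 and 0.55 in the third ventricle arrays 1, 2 and 3, against -1.33, 0.57 and -0.82 in lateral ventricle arrays 1, 2 and 3. This fit therefore largely repeats the comparison with lateral ventricle array 2 alone. It cannot separate the cell cycle from anything else that sets that array apart from the other lateral arrays. Over all arrays 0 of the 15 passed in limma (12 at an unadjusted p below 0.05), with a median of 1.15 and with Pcna and Top2a, those with the highest means, at 0.56 and 1.17. When lateral ventricle array 2 was left out, 15 of the 15 passed as higher.

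**Figure D3:**
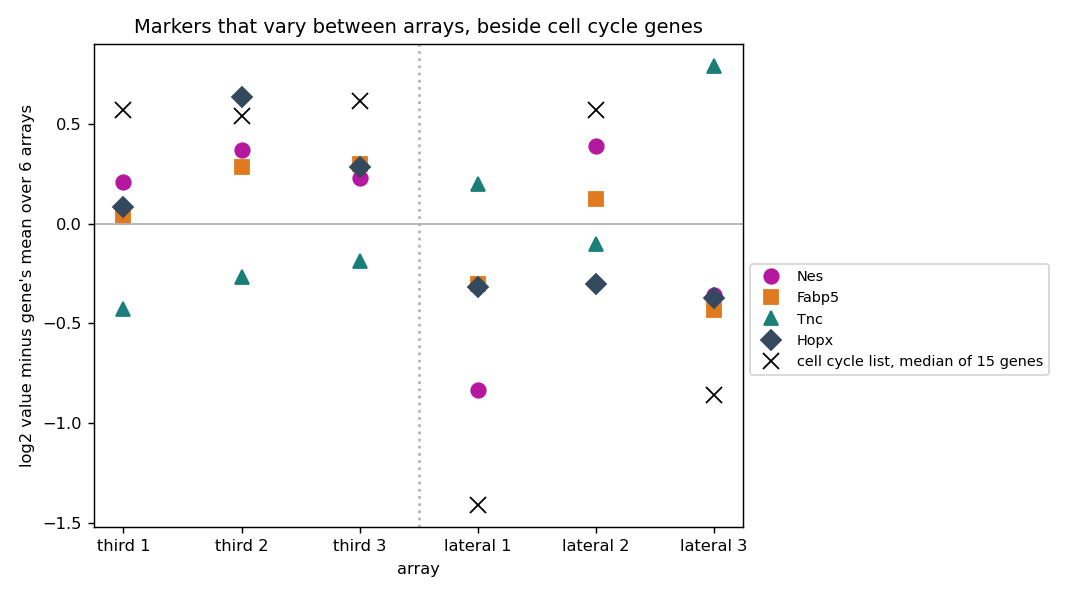
Log2 value minus the gene's mean over 6 arrays for Nes, Fabp5, Tnc and Hopx, with the median of 15 cell cycle genes as crosses, in the third ventricle arrays (left) and the lateral ventricle arrays (right). Nes, Fabp5 and the cell cycle genes are low in lateral ventricle arrays 1 and 3 and not in array 2. The lateral ventricle values of Hopx lie below the background gauge.

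The genes whose profile over the 6 arrays was most like that of a marker were sought for the 3 markers with a range of at least 1, by the root mean square difference of the gene-centred log2 values. Among 11431 candidates, the closest to Nes were Nxt1 (0.05), a factor of nuclear RNA export, Mcm2 (0.05), a subunit of the DNA replication helicase, and Nup85 (0.06), a nuclear pore protein. Mcm2 is also on the cell cycle list, so its likeness to Nes repeats the one described above. The closest to Hopx were Myl9, Mir680-1 and Akr1b10, at 0.10 each. The lateral values of Hopx lay below the gauge, as did those of Mir680-1. The range of Hopx and its likeness to other genes are therefore partly set by the floor. The closest to Tnc were Ttc39b (0.08), the secreted hormone Stc2 (0.09) and the zinc finger gene Zfp330 (0.09). These are likenesses over few arrays of one experiment and carry no test.

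Further genes known from radial glia and neural stem cells were read the same way. Of 25 measured, 0 passed in limma over all arrays and 0 without lateral ventricle array 2, with 1 and 3 at an unadjusted p below 0.05. Their differences had a median of -0.09, with 7 positive, beside -0.02 over all genes. The lipid-binding protein Dbi and the enzyme Ddah1 had the highest means and differed by 0.09 and -0.05, and 24 of the 25 lay above the gauge in every array. Genes that regulate Gfap in astrocytes, such as the JAK, BMP and nuclear factor I genes, gave 0 calls in limma among 16 measured, 7 at an unadjusted p below 0.05, with a median of -0.13. Nfib and Nfia, factors that promote the astrocyte fate, had the highest means and differed by 0.38 (adjusted p = 0.348) and 0.39 (adjusted p = 0.315). Without lateral ventricle array 2 the DNA methyltransferase Dnmt1 (1.09, adjusted p = 0.00116) and Nfib (0.50, adjusted p = 0.0491) passed as higher, and Smad4 (-0.47, adjusted p = 0.0188) and Bmp4 (-1.25, adjusted p = 0.0487) as lower. Bmp4 was above the gauge in 1 array of the third ventricle, so its difference is measured against a group near background.

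**Figure D4:**
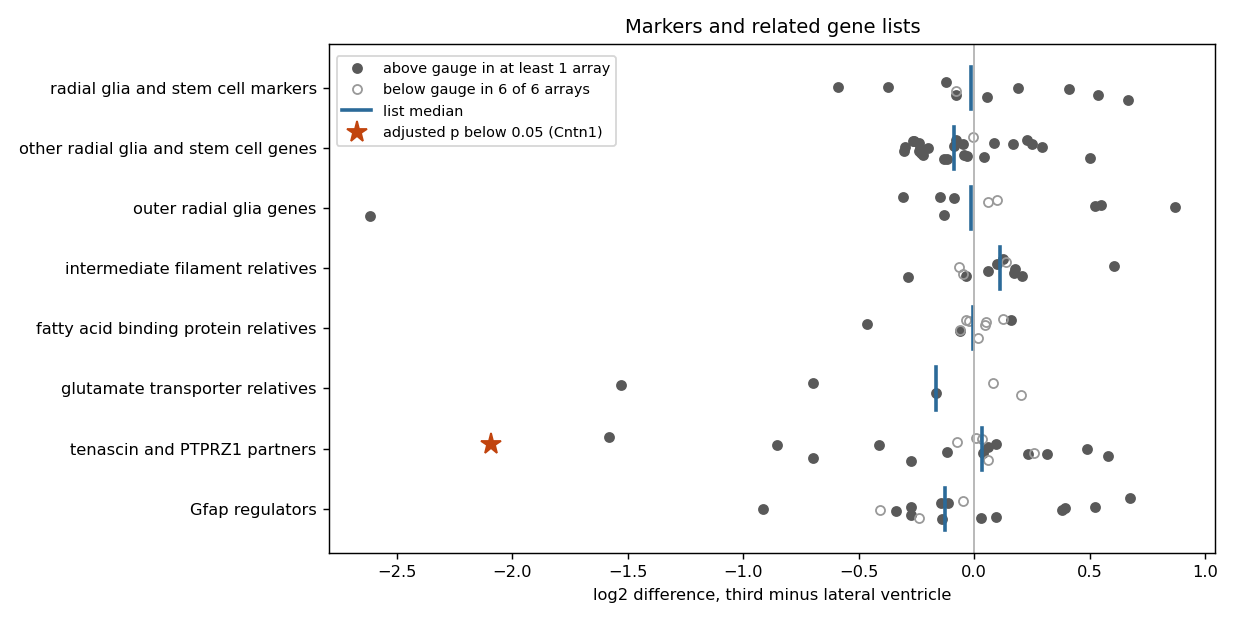
Log2 difference, the third minus the lateral ventricle, of each measured gene in the marker list and in 7 related lists. Open circles were below the background gauge in 6 of 6 arrays, blue lines are list medians, and the star is Cntn1 at -2.09, the 1 gene here that passed over all genes.

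Genes used as markers of other neural lineages were also read, and the summed level of each list is given on the log2 scale. In bulk RNA these levels do not show whether cells of those lineages were present. Oligodendrocyte lineage genes summed to 10.03 to 10.09 in the third ventricle and 10.40 to 10.55 in lateral ventricle cultures, with 7 of 8 above the gauge in every array. In limma 1 of the 8 passed (3 at an unadjusted p below 0.05), Pdgfra (-1.79, adjusted p = 0.00707, and -1.92 without lateral ventricle array 2). Sox10 and Gpr17 also passed as lower without lateral ventricle array 2. Olig1 and Olig2 went the other way, at 0.17 and 0.09, and at 0.39 and 0.16 without that array, where neither passed. Astrocyte genes summed to 11.19 to 11.48 in the third ventricle and 10.48 to 12.06 in lateral ventricle cultures, with 7 of 8 above the gauge in every array. In limma 0 of the 8 passed (2 at an unadjusted p below 0.05), and Sparcl1 and Apoe had the highest means, with differences of 0.94 and -1.35, both of which passed without lateral ventricle array 2. Neuronal genes summed to 10.84 to 11.04 in the third ventricle and 10.86 to 11.19 in lateral ventricle cultures, with 5 of 9 above the gauge in every array and Stmn2 and Syt1 below it in all. In limma 0 of the 9 passed (5 at an unadjusted p below 0.05), Map2 and Tubb3 differed by 0.24 and -0.60, and Tubb3 and Dcx passed as lower without lateral ventricle array 2. A sum is set mostly by its brightest genes. The median difference was -0.16 for the oligodendrocyte list, with 2 of 8 positive, and -0.06 for the astrocyte list, with 3 of 8 positive. For the neuronal list it was -0.25, with 2 of 9 positive. The part of these lineages in the differences of Nes, Fabp5, Hopx and Tnc was not tested.

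Of the markers of non-neural cells, 5 of 6 endothelial, 4 of 7 microglial and 4 of 7 meningeal genes were below the gauge in all arrays, among them Pecam1, Cdh5, Aif1, Csf1r, Dcn and Lum. Above it in every array were 3 of 7 meningeal genes, the collagens Col1a1, Col1a2 and Col3a1, 1 of 6 endothelial genes, Flt1, and 0 of 7 microglial genes. Their sums were 7.11 to 7.20 in the third ventricle and 6.98 to 7.09 in lateral ventricle cultures for endothelial genes, 7.42 to 7.54 in the third ventricle and 7.44 to 7.58 in lateral ventricle cultures for microglial genes, and 7.78 to 7.84 in the third ventricle and 7.70 to 7.83 in lateral ventricle cultures for meningeal genes. Choroid plexus genes, of which Ttr and 2 others of 5 were below the gauge in all arrays and Otx2 and Folr1 above it in all, summed to 7.57 to 7.81 in the third ventricle and 7.63 to 7.90 in lateral ventricle cultures. Ependymal genes summed to 8.32 to 8.48 in the third ventricle and 8.12 to 8.30 in lateral ventricle cultures, with 4 of 7 above the gauge in every array, the ciliary genes Ccdc39 and Rsph1 having the highest means. In each of these 5 lists 0 genes passed in limma, over all arrays and without lateral ventricle array 2. At an unadjusted p below 0.05 over all arrays there were 2 ependymal genes and 1 endothelial gene, and 0 in the other lists.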

How the data were processed

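Total RNA of 6 neural stem cell cultures was measured on Affymetrix arrays, 3 per region. Per the labels' protocols, RNA was extracted with Trizol and amplified with the NuGEN WT-Ovation Pico system. The authors deposited log2 values per probe set. Per the submitters' processing notes, Affymetrix Expression Console 1.1 and RMA were used, and no other setting is known here. RMA compresses differences of dim probe sets. No genome build is named in the files, and promoter positions are those of the RefSeq table.

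Of 35556 probe sets, 21789 had 1 gene symbol, 1621 several and 12146 were unnamed. Where several single-symbol probe sets shared a gene, the brightest over all arrays was kept. The 19938 genes were fitted with limma 3.58.1 in R 4.3.3 (lmFit, eBayes), and a positive difference means higher in the third ventricle. SEs and 95% intervals are moderated, with 4.04 prior degrees of freedom. The labels call the arrays biological replicates without tying them to animals, and p-values reflect only how these cultures vary. Precision is limited by the number of arrays.

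The members, lists, gauge and alternatives were chosen with earlier results of these data known. Named are all markers, the 3 genes nearest in profile to each marker with a range of at least 1, and, per list, up to 4 genes that passed or else the 2 with the highest mean, with up to 3 that passed only without lateral ventricle array 2. Ptn, named as a ligand of Ptprz1, and genes named only as above or below the gauge were chosen after their values were seen. So were Olig1 and Olig2, named as the genes of their list with positive differences. The fit was tested on simulated data of 19938 genes in the same design. It recovered 37.1% of 62 genes with a 1.5-fold change, 79.7% of 69 with a 2-fold change and 98.6% of 69 with a 4-fold change, with 7 false among 153 calls. The simulated noise was independent between genes and arrays, and no array departed from its group as lateral ventricle array 2 does. These rates check the fit and are not the power reached in the real data. Promoter stretches were found for 9 of the 10 markers, all but Fabp5. Alternatives covered array weights, the variance prior, normalization, probe set choice, a filter on dim genes, a replicate block, a cell cycle covariate and arrays left out.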

Additional observations from a re-analysis of the deposited data

How the results depend on the processing

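None of the 10 markers passed in limma under 15 of the 16 alternatives. The exception was the fit without lateral ventricle array 2, with 4, so that leaving out 1 array gave 0 to 4 passing markers. The median difference of the markers lay between -0.05 and 0.04 over the fits that left out 1 array, and between -0.07 and 0.05 over all alternatives. Nes changed sign under 2 alternatives, Fabp7 under 2, and Slc1a3 and Ptprz1 under 1 each, without any of them being called there. Hopx, at background in the lateral ventricle arrays, ranged from 0.51 to 0.79 and Tnc from -0.79 to -0.19. Over all genes, 46 passed over all arrays, 158 with array weights and 25 with the cell cycle covariate, while leaving out 1 array gave 4 to 1644. Without lateral ventricle array 1, 2 or 3 the counts were 25, 1644 and 20. They were 7, 4 and 4 without array 1, 2 or 3 of the other region. Each of these fits left out 1 array, and the cause of their different counts was not tested. Gfap has no value in the fit without the 40% dimmest genes.

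The replicate block called 57 genes and 0 markers. Same-numbered arrays of the 2 regions had correlations of 0.24, 0.11 and 0.07 between their deviations from the group means. Each array correlated best with its own number, which is a hint from the data and not part of the design, and the numbers were not taken as pairs. Signal over background limits what can be said of Gfap, Prom1 and Hopx.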
